A study of Saccharomyces cerevisiae with 3 samples.

Results

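The transcripts of Saccharomyces cerevisiae S288c, a reference laboratory strain of baker's yeast, were compared after 5 h with 15 µM tomatidine and after 5 h with its solvent alone, dimethylformamide (DMF). The comparison takes 2 of the 3 arrays of the series, the array titled for 15 µM and the one titled control, and all 9275 of 9335 probe sets that are not array controls. All cultures received DMF and none is untreated. The other array, from 7.5 µM tomatidine for 5 h, is shown beside them and was hybridised from the same strain. Each condition has 1 array of total RNA. Without replicates nothing could be tested, and all sizes below describe this pair of arrays. Neither the medium, nor the growth phase, nor whether the cultures were grown side by side is given in the labels.

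Tomatidine is a steroidal alkaloid of tomato, the aglycone that remains when the sugars of tomatine are removed. Yeast membranes are built with ergosterol, a sterol whose synthesis needs oxygen, and cells short of sterol or oxygen switch to another set of cell wall mannoproteins and of uptake genes. Beyond membranes, yeast transcripts move in large blocks: genes of ribosomes and growth in one block, and genes of stress defence, reserve carbohydrates and vacuolar breakdown in another. Smaller regulons answer to phosphate, metals, amino acids, sugars, calcium and mating pheromone.

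Signals were divided by each array's median and brought to a common level, so that a scaled signal is a brightness on a linear scale. A floor of 18.2, the 40th percentile of all scaled signals, stands for the level below which signals have no order. A probe set of their own was annotated for 5656 genes. Of these, 4660 exceeded the floor on at least 1 of the 2 arrays and were compared, and 996 did not. A gene is called at a 2-fold difference of floored signals or more, and where its dimmer signal does not exceed the floor, the fold is a lower bound, written as at least that value. In the sentences below, 3 scaled signals of a gene are given in the order 15 µM, 7.5 µM and control. A ratio is the log2 of the floored 15 µM signal over the floored control signal, and levels of different genes are not compared, since probes differ in brightness.

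The arrays were alike in global measures and differed in some. Genes above the floor numbered 4486, 4466 and 4473. The ratio of 3′ to 5′ signal, a sign of RNA integrity, was 1.47, 1.80 and 1.63 for the actin gene ACT1, with the control between the treated arrays. For SPT15, which encodes the TATA-binding protein, it was 2.48, 2.35 and 3.30, so the control stood above both. After scaling, hybridisation controls of bacterial and phage origin were 1.78-fold brighter in the control than at 15 µM. Median ratios also drifted with the number of the probe set, from 0.13 in the bin of numbers starting at 6000 to -0.28 in the bin starting at 11000, and they were between -0.42 and -0.21 below number 4000. Probe set numbers largely follow the chromosomes, so the median ratio of whole chromosomes ran from 0.10 for chromosome IV to -0.30 for chromosome I. With ratios centred along the probe set number, a choice made after the data were seen, all chromosomes lay between -0.04 and 0.03. Of the 129 higher and 54 lower genes below, 116 and 40 were kept after that centring. It called 132 higher and 45 lower genes in all, so some genes gained a call, MPC1 among those named below. Of the genes named below, ENO1, EHT1, PHO8, MIG3, SSE2, CAB2 and UBP5 among the higher were short of 2-fold after it. Among the lower, ADE1, ADE13, MTD1, TRZ1, MSN4, MRPL13, YLL053C and APC1 were short of 2-fold after it. Beside each list's median ratio, the brackets give its median after centring on probe set number and then after centring on number and signal, in this order.

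Most of the genome differed little between the 15 µM and control arrays. Of the 4660 genes, 3944 (84.6%) were within 1.5-fold, and the median ratio was -0.03 with quartiles of -0.29 and 0.24. At least 2-fold higher at 15 µM were 129 genes (2.77% of those compared) and at least 2-fold lower were 54 (1.16%). Counts of calls in each list below, single calls included, are to be read against these shares. In 18 of the higher and 6 of the lower genes the fold is a lower bound. Differences of at least 4-fold were seen in 23 higher genes and 3 lower ones. A ratio above 0 was found in 46.9% of genes and one below 0 in 53.1%. Where a gene had several probe sets above the floor, their ratios differed with a pooled SD of 0.395 on the log2 scale over 210 genes, which is a spread between probes and not between cultures. In bulk RNA, a lower level in each cell and fewer cells with the transcript cannot be told apart. All directions are relative to the median probe set: scaled on the spike controls, the median ratio of all genes was 0.75, 1288 genes were at least 2-fold higher and 7 lower, and 38 of 77 list medians took the other sign.

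Called genes came from all parts of the signal range. The median scaled signal of the 129 higher genes was 47.7 in the control and 139.8 at 15 µM, and 100 of them had a control signal under 100. Among the 54 lower genes the medians were 90.5 in the control and 36.6 at 15 µM, and 15 of them had a control signal over 300. Genes are called on their ratio to the control signal, so these medians follow in part from the rule. The 7.5 µM signal lay between the other signals in 113 of the 129 higher genes and in 49 of the 54 lower genes. Both doses were read against the same control array, so the order of the 3 signals is not independent evidence for either dose.

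**Figure D1:**
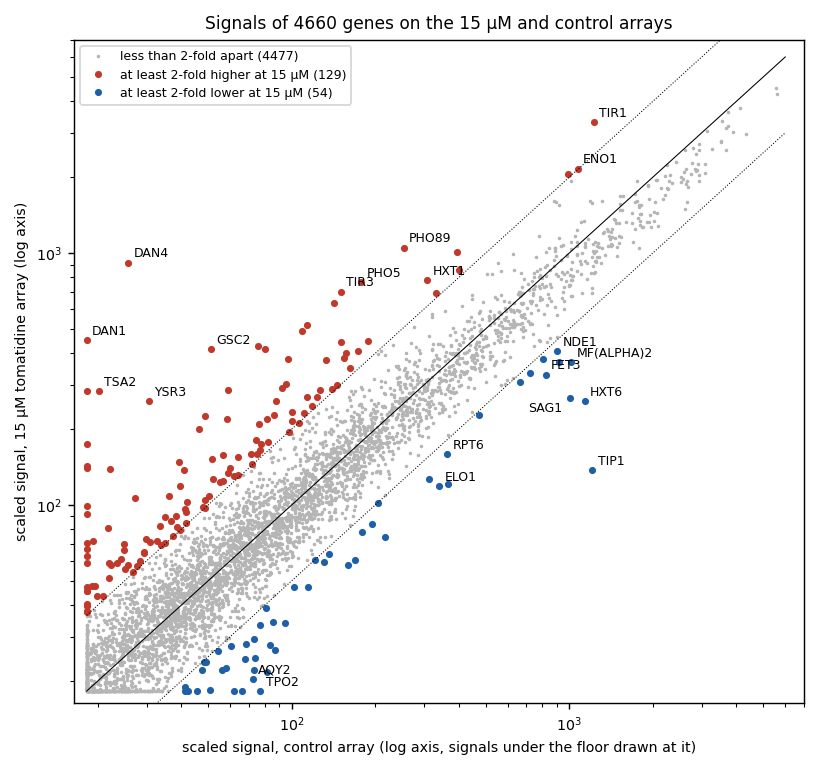
Scaled signals of the 4660 compared genes on the control array (x axis, log scale) and the 15 µM array (y axis, log scale), 1 point a gene, with the line of equality and dotted lines at 2-fold. Red points are the 129 genes at least 2-fold higher and blue points the 54 at least 2-fold lower; 100 of the red points have control signals under 100, and TIP1, HXT6 and SAG1 stand among the blue points above 1000.

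The brightest genes leaned lower at 15 µM. Genes with a mean scaled signal above 1000 numbered 162 and had a median ratio of -0.28, with 3 of them at least 2-fold higher and none at least 2-fold lower. Those between 300 and 1000 numbered 449 and had a median of -0.15, while the 3 bands below 300 had medians between -0.02 and 0.01. On the control array 178 genes exceeded a signal of 1000 and held 36.9% of the summed signal of all genes, and on the 15 µM array 153 genes held 31.0%. The 100 brightest genes of each array held 26.5% of its summed signal in the control, 23.7% at 7.5 µM and 23.9% at 15 µM. The upper end of the signal scale was thus lower on both treated arrays relative to the median probe set. Bright transcripts include those of ribosomal proteins, glycolysis and the cell wall, which are described as groups below with this lean in view.

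**Figure D2:**
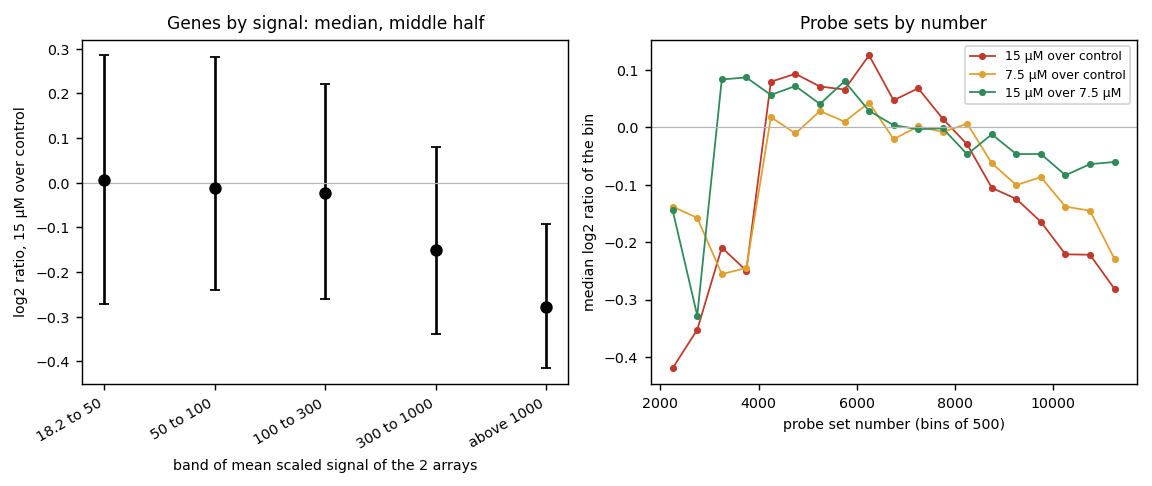
Left, the median ratio (point) and quartiles (bars) of 15 µM over control, on the log2 scale, for genes in 5 bands of mean scaled signal. Right, the median log2 ratio of probe sets in bins of 500 probe set numbers for the 3 pairs of arrays; medians fall from 0.13 to -0.28 for 15 µM over control between the bins starting at 6000 and at 11000, and the line of 15 µM over 7.5 µM is flatter there.

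Differences in absolute signal are given for some called genes outside sterol synthesis, with no ranking of one gene against another. TIR1, a cell wall mannoprotein, had signals of 3311, 2823 and 1223. ENO1, an enolase isoenzyme of glycolysis, had signals of 2159.7, 2385 and 1072. DAN4 and PHO89, a wall mannoprotein and a sodium-coupled phosphate transporter, went from 25.7 to 914 and from 253 to 1051. TIR1 and ENO1 were bright in the control already, while DAN4 was close to the floor there. TIP1, another wall mannoprotein, had signals of 138, 282 and 1211, and HXT6, a high-affinity hexose transporter, had 258, 431 and 1137. SAG1, the alpha-agglutinin of mating, had 266, 565 and 1009.5. These lower genes were bright in the control and remained well above the floor at 15 µM.

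The list labelled low oxygen mannoproteins, which also holds wall mannoproteins of cells growing in air, had the highest median of all lists. Of 10 compared genes, 6 were at least 2-fold higher (against 2.77% of all compared genes), 1 at least 2-fold lower (against 1.16%) and 3 neither, with a median ratio of 1.27 (1.32 and 1.42 centred). DAN4 had scaled signals of 914, 518 and 25.7 and DAN1 had 452, 308 and 16.6, so both were near or under the floor in the control and well above it at either dose. TIR3 had 702, 457 and 150.3 and TIR4 had 226, 78.9 and 48.7, and TIR4 stood closer to the control at 7.5 µM than at 15 µM. TIR2, also of this family, had a ratio of 0.35. CWP1 and CWP2, mannoproteins of the wall of cells growing in air, had ratios of -0.49 and -0.45. TIP1, whose product is a wall mannoprotein of the same sequence family, was 8.79-fold lower, the largest difference among all 54 lower genes. The list was divided, with 6 members higher and TIP1 lower. Among the 6 are TIR1, given above, and PAU23, which is counted again among the seripauperins below.

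The seripauperins, a family of near-identical small wall-related proteins encoded mostly close to chromosome ends, also stood high. Of 10 compared genes, 4 were at least 2-fold higher (against 2.77% of all compared genes) and none lower. The median ratio was 0.76 (0.96 and 0.94 centred), with 9 above 0. PAU13 had signals of 152, 67.7 and 51.7, PAU10 had 93.6, 58.4 and 41.6, PAU23 had 108, 63.2 and 50.2 and PAU3 had 45.5, 20.1 and 11.2. All 10 have only family-type probe sets, which share probes between relatives, so the signal of 1 member cannot be told apart from that of another. Probe sets that the annotation gives to several genes had more higher calls but a lower median than others. Of 238 such probe sets above the floor, 33 (13.9%) were at least 2-fold higher and 3 lower, against 3.17% and 1.52% of all 5869 probe sets above the floor. Their median ratio was -0.21, against -0.06 for all, and such probe sets can read the same transcripts repeatedly.

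Other wall genes had a median below that of the genome, which came close to 0 once centred on number and signal. Scaled on the spikes it was 0.63, against 0.75 for all genes. Of 40 compared genes for wall proteins and wall enzymes, none was at least 2-fold higher or lower, 10 had a ratio above 0 and the median was -0.21 (-0.16 and -0.03 centred). CCW12, an abundant wall mannoprotein, had signals of 4273, 3798 and 5621, and PIR1, a wall protein bound to glucan, had a ratio of -0.56. YPS1, a wall-associated protease, had the highest ratio of the list, 0.69. The list held 3.48% of the summed signal of all genes in the control and 3.07% at 15 µM.

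The subunits of glucan synthase, which spins the main fibre of the wall, went opposite ways. GSC2, the subunit used under stress and in spores, had signals of 416, 116 and 51.2 and was 8.11-fold higher. Of its 7 probe sets, 3 were above the floor, with ratios of 3.02, 2.32 and 1.95. FKS1, the subunit of growing cells, had 1283, 1276 and 2082, a ratio of -0.70 short of 2-fold. Among 18 compared genes of glucan and chitin synthesis GSC2 was the sole one called and the median ratio was -0.08 (-0.07 and -0.06 centred). Of 15 genes of cell integrity signalling, none was at least 2-fold higher, with a ratio of 0.74 for SLT2, the kinase at the end of that cascade. WSC4, a wall sensor, was 2.49-fold lower, with signals of 29.4, 43.0 and 73.3. HPF1, a mannoprotein of chromosome XV named after its effect in wine, went from 146 to 298, and YMR317W, a gene with only a systematic name, had 139.9, 104 and 12.4.

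Some general stress genes were higher, while no chaperone gene was called. Of 30 listed genes for small heat shock proteins and other general stress proteins, 18 were compared and 12 were not above the floor. Of the 18, 6 were at least 2-fold higher (against 2.77% of all compared genes), 1 lower and 11 neither, with a median ratio of 0.88 (0.86 and 0.82 centred). GRE2, a methylglyoxal reductase, had signals of 517, 305 and 114. HSP12, a membrane-associated stress protein, had 258, 138 and 87.6, and HSP26, a small heat shock chaperone, had 80.9, 38.5 and 21.8. The signals of these 3 genes stood in the order of dose. GAD1, glutamate decarboxylase, TFS1, an inhibitor of carboxypeptidase Y, and SSE2, a stress form of an Hsp110 chaperone, were 2.45-fold higher, 2.23-fold higher and 2.03-fold higher. SSE2 was short of 2-fold after centring on probe set number. DDR48, a gene of the DNA damage and heat response, had a ratio of 0.11. MSN4, a transcription factor that drives this regulon, was at least 2.27-fold lower with signals of 11.2, 29.7 and 41.3, and its call was lost after centring on probe set number.

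Of 34 compared chaperone genes none was called, 8 had a ratio above 0 and the median was -0.24 (-0.13 and -0.05 centred). SSA1, a major cytosolic Hsp70, had signals of 3187, 3641 and 3733, and SSA4, the Hsp70 most inducible by heat, had a ratio of -0.89. SSC1, the Hsp70 of the mitochondrial matrix, had -0.72 and CDC37, a kinase co-chaperone, had 0.78.

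Reserve carbohydrate genes were in part higher. Of 21 compared genes of trehalose and glycogen, 3 were at least 2-fold higher (against 2.77% of all compared genes) and none lower. The median ratio was 0.21 (0.29 and 0.27 centred). PGM2, the main phosphoglucomutase, had signals of 148, 119 and 39.4. GLC3, the glycogen branching enzyme, had 90.5, 80.3 and 38.1 and TPS2, trehalose-phosphate phosphatase, had 175, 163 and 77.2. At 7.5 µM all 3 were closer to their 15 µM signal than to the control.

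Peroxide defence was higher in single enzymes. Of 31 compared genes of oxidative stress, 3 were at least 2-fold higher (against 2.77% of all compared genes) and none lower. The median ratio was 0.15 (0.23 and 0.24 centred). TSA2, a cytosolic peroxiredoxin, had signals of 282, 126 and 20.2 and was 14.0-fold higher. GTT1, a glutathione transferase, had 382, 211 and 155, and DOT5, a nuclear thiol peroxidase, had 155, 110.5 and 63.8. The bright peroxiredoxins of growing cells differed less, with ratios of -0.13 for TSA1 and -0.54 for AHP1. Several reductases outside the list were also higher: ARI1, an aldehyde reductase, went from 86.1 to 226, YDL124W, an alpha-keto amide reductase, from 58.6 to 219, and YNL134C, an alcohol dehydrogenase relative, from 156 to 401. These 3 were chosen after their values were seen.

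Of 21 genes of osmotic adaptation and glycerol, GPP2, a glycerol-3-phosphate phosphatase, was the sole one at least 2-fold higher, with signals of 285, 160.1 and 58.9. GPD1, which makes the substrate of GPP2, had a ratio of 0.59. AQY2, an aquaporin reading frame, was 3.54-fold lower, and its neighbour YLL053C was 2.14-fold lower. Both parts of this locus were thus lower, with YLL053C short of 2-fold after centring on number.

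The list of vacuolar hydrolases and their regulators leaned higher. Of its 21 compared genes, 5 were at least 2-fold higher (against 2.77% of all compared genes) and none lower. The median ratio was 0.37 (0.35 and 0.35 centred), with 16 above 0. AMS1, the vacuolar alpha-mannosidase, had signals of 139, 36.0 and 22.2. PLB1, a secreted phospholipase B, had 157, 87.7 and 56.5, and PHO8, the vacuolar alkaline phosphatase, went from 106 to 212. TFS1, the inhibitor named above, is also in the list. Of the 5, only AMS1 and PHO8 are vacuolar hydrolases by the roles given here. PHO8 was short of 2-fold after centring on number. The largest difference was that of PBI1 (YPL272C), which entered the list by its name and whose role the files do not give, with signals of 284, 130.0 and 14.6. PRB1, proteinase B, had a ratio of 0.86 and PEP4, proteinase A, one of 0.12.

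Autophagy is the delivery of cell contents to the vacuole. Of its 24 compared genes, 2 were at least 2-fold higher (against 2.77% of all compared genes) and none lower. The median ratio was 0.27 (0.32 and 0.31 centred), with 19 above 0. ATG22, a vacuolar exporter of amino acids, had signals of 109, 74.8 and 36.1, and ATG34, a receptor that carries AMS1 to the vacuole, had 38.1, 30.1 and 17.3. The receptor and its cargo AMS1 were therefore both higher, ATG34 from a signal under the floor. The proton pump that acidifies the vacuole stood near the genome's median, with 20 compared genes, no call and a median of 0.07 (0.10 and 0.13 centred).

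The proteasome, which degrades tagged proteins, had a median ratio of 0.05 (-0.004 and 0.04 centred) over 36 compared genes. RPT6, an ATPase of its regulatory particle, was the sole call, at signals of 159, 486 and 363. It was lower at 15 µM and stood above the control at 7.5 µM. The ubiquitin list had 28 compared genes, no call and a median of 0.15 (0.16 and 0.16 centred). Outside it, the deubiquitinases UBP5 and UBP11 were 2.05-fold higher and at least 2.22-fold higher.

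Phosphate genes included several of the larger differences. Of 26 compared genes in the phosphate list, 6 were at least 2-fold higher, 1 lower and 19 neither. Of all compared genes, 2.77% were higher and 1.16% lower. The list's median ratio was 0.20 (0.22 and 0.27 centred). PHO5, the secreted acid phosphatase that is made when phosphate is short, had signals of 765, 666 and 178. PHO89, the sodium-coupled transporter, had 1051, 887 and 253, PHM6, whose role is not known, had 209, 181 and 75.9, and PHM8, a nucleotide phosphatase, had 60.7, 63.7 and 24.2. GPP2 and PHO8, given above, complete the 6, with PHO8 short of 2-fold after centring on number. In each of the 6 genes the 7.5 µM signal was also above the control.

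Other genes of the list did not share this. PHO84, the high-affinity proton-coupled phosphate transporter, was bright on all arrays, with signals of 1946, 1983 and 2046 and a ratio of -0.07. The lower gene of the list was PHO3, a constitutive acid phosphatase adjacent to PHO5 on chromosome II. PHO3 is also in the vitamin list and was 2.15-fold lower, with signals of 308, 355 and 663. The neighbours PHO3 and PHO5 thus went opposite ways, and the summed share of the list went from 0.99% of all gene signal in the control to 1.29% at 15 µM. GDE1, a glycerophosphodiesterase that frees phosphate from a lipid product, lies outside the list and went from 48.7 to 104.

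Drug resistance genes were called in both directions. Of 27 compared genes, 4 were at least 2-fold higher and 2 lower, against 2.77% and 1.16% of all compared genes. The median ratio was 0.40 (0.45 and 0.43 centred). ICT1, a lysophosphatidic acid acyltransferase of this regulon, had signals of 378, 257 and 97.0. PDR15, an ABC transporter, had 66.9, 26.5 and 16.3, while SGE1 and TPO4, drug and polyamine exporters of the facilitator family, were 2.18-fold higher and 2.13-fold higher. The exporters that were lower were PDR12, the weak acid pump, with 34.1, 63.9 and 94.5, and TPO2, a polyamine exporter, with 12.8, 16.4 and 77.1. The polyamine exporters TPO4 and TPO2 were thus called in opposite directions.

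Ion pumps and their regulators had 25 compared genes, of which 2 were at least 2-fold higher (against 2.77% of all compared genes), with a median ratio of -0.06 (0.13 and 0.11 centred). The 2 were CMK2, a calmodulin-dependent kinase, and RCN2, a regulator of calcineurin. CMK2 had signals of 107, 54.3 and 27.3 and RCN2 124, 80.7 and 55.1. PMC1, the calcium pump of the vacuole, had a ratio of 0.63. Signals of CMK2 and RCN2 stood in the order of dose.

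**Figure D3:**
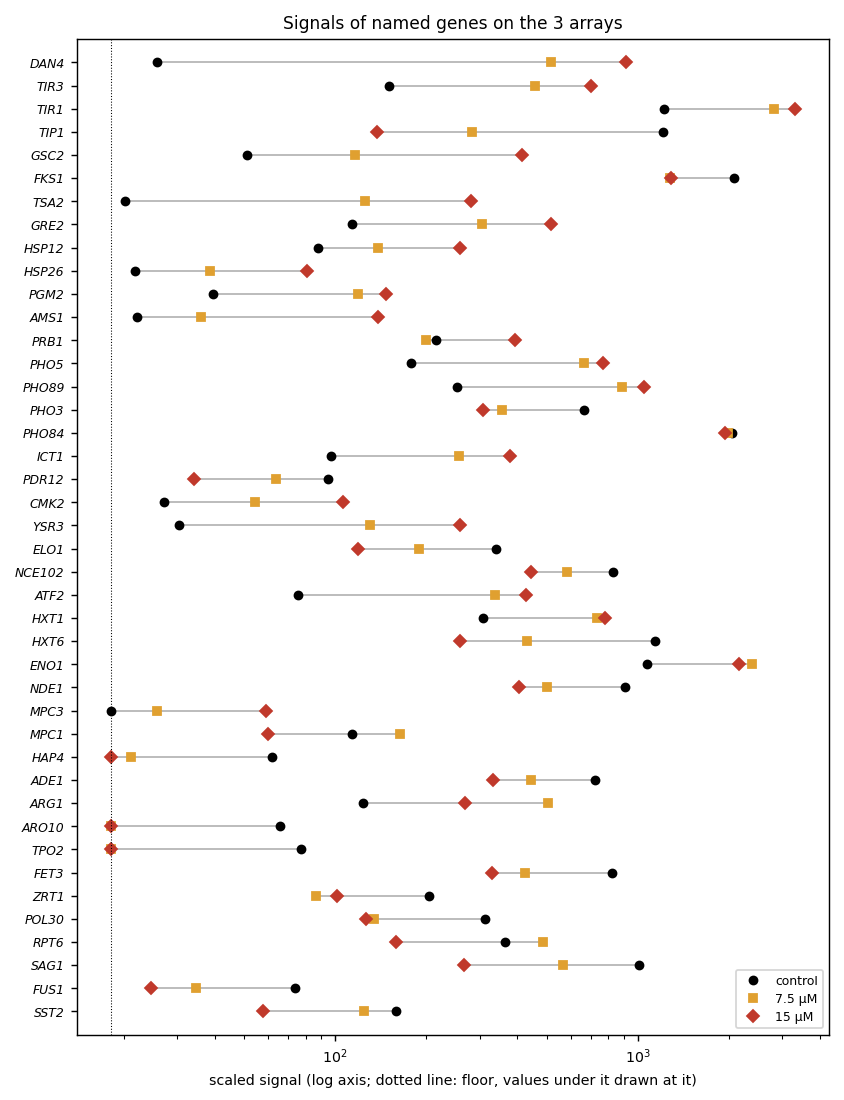
Scaled signals (x axis, log scale) of 42 named genes on the control (black circles), 7.5 µM (orange squares) and 15 µM (red diamonds) arrays, 1 array each, with signals under the floor of 18.2 drawn at it. DAN4 and TSA2 start near the floor in the control, PHO84 has 3 signals close together near 2000, and RPT6, MPC1 and ARG1 have their highest signal at 7.5 µM.

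Lipid genes outside sterol synthesis differed in few members. Sphingolipid genes, 26 compared, had a median ratio of 0.01 (0.02 and 0.05 centred) and 1 call, YSR3, a phosphatase of long-chain base phosphates, with signals of 258, 131 and 30.6. It was 8.43-fold higher, while no other gene of the pathway passed 2-fold. Fatty acid genes, 19 compared, had a median of -0.15 (0.01 and 0.06 centred) and 1 call, ELO1, which elongates medium-chain fatty acids, with 119, 189.7 and 339.7. Phospholipid synthesis had 26 compared genes, no call and a median of -0.02 (-0.04 and -0.01 centred). Sterol synthesis itself, from squalene to ergosterol, had 10 of 16 genes at least 2-fold higher, and its share of all gene signal went from 0.862% to 1.81%.

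Membrane organisation and ester genes added single large differences. FHN1, a protein of the membrane furrows called eisosomes, had signals of 143, 57.3 and 17.9 and was at least 7.82-fold higher. Its relative NCE102, also of these furrows, went the other way without reaching 2-fold, with signals of 444, 583 and 828. SUR7 had a ratio of -0.92. Of 14 compared eisosome genes FHN1 was the sole call, and their median ratio was -0.01 (0.04 and 0.01 centred). ATF2, an alcohol acetyltransferase that also acetylates steroids, had 426, 337 and 75.3. YEH1, a steryl ester hydrolase, went from 81.4 to 219.8, EHT1, an ethanol acyltransferase, from 97.4 to 195, and EGH1, a hydrolase of ergosterol glucoside, from 23.5 to 58.6. The coenzyme A genes CAB1 and CAB2, for pantothenate kinase and the next enzyme of the pathway, went from 113 to 267 and from 48.5 to 97.2. YEH1, EGH1, CAB1 and CAB2 are in no list and were chosen after their values were seen.

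A low-affinity sugar carrier was higher and some carriers of higher affinity were lower. Of 15 compared genes of hexose transport and its control, 2 were at least 2-fold higher and 3 lower. Of all compared genes, 2.77% were higher and 1.16% lower. The list's median ratio was 0.04 (0.10 and 0.09 centred). HXT1, the low-affinity transporter used at high glucose, had signals of 779, 736 and 308, and HXT3, another low-affinity one, had a ratio of 0.87. MIG3, a glucose repressor, went from under the floor to 37.5. HXT6 and HXT7, high-affinity transporters with nearly identical sequences, had 258, 431 and 1137 and 368, 497 and 920.4, and their family-type probe sets cannot tell them apart. HXT4, of intermediate affinity, had 33.2, 55.0 and 76.7. HXT2, among the 3 brightest genes of the list, was not called. At 7.5 µM these 4 called transporters stood on the same side of the control as at 15 µM.

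Glycolysis as a whole lay near the genome's median. Of 33 compared genes of glycolysis and fermentation, 3 were at least 2-fold higher (against 2.77% of all compared genes) and none lower. The median was -0.09 (-0.08 and 0.10 centred). ENO1 was 2.02-fold higher through a probe set of a type that is not unique to 1 gene by design (0.92 on the log2 scale after centring on number, short of 2-fold), ADH5, a minor alcohol dehydrogenase, was 2.45-fold higher, and PFK26, which makes the regulator fructose 2,6-bisphosphate, was 2.22-fold higher. The list held 4.31% of summed signal in the control and 4.09% at 15 µM. Among 15 genes of the pentose phosphate pathway NQM1, a transaldolase relative, was at least 2.49-fold higher, and the median was 0.14 (0.05 and 0.15 centred).

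Respiration genes leaned lower against the median probe set. Scaled on the spikes their median ratio was 0.57, against 0.75 for all genes. The 42 compared genes of the respiratory chain and ATP synthase had a median ratio of -0.27 (-0.26 and -0.23 centred), with 33 below 0, none at least 2-fold higher and 1 lower. NDE1, the external NADH dehydrogenase, had signals of 406, 503 and 906. CYC1, cytochrome c, had a ratio of -0.98, just short of 2-fold, and STF1, which stabilises an inhibitor of ATP synthase, had 0.72. HAP4, the activator subunit of the complex that drives respiration genes, had 13.8, 21.1 and 61.9 and was at least 3.39-fold lower. HAP4 and NDE1 thus lay on the same side as most respiratory genes.

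Other mitochondrial groups had similar or smaller leans. The 16 compared genes of the tricarboxylic acid cycle had a median of -0.18 (-0.21 and -0.16 centred) and no call. ACO1, aconitase, and MDH1, malate dehydrogenase, had ratios of -0.96 and -0.92, while CIT2, the peroxisomal citrate synthase, had 0.98. Protein import had 38 compared genes, 31 below 0, no call and a median of -0.15 (-0.17 and -0.13 centred). The pyruvate carrier subunits differed in direction: MPC3, used in respiring cells, had signals of 59.0, 25.8 and 16.1, and MPC1, their common partner, had 60.2, 163 and 113. MPC1 was highest at 7.5 µM and its 15 µM ratio of -0.91 was short of 2-fold. HEM13, the oxygen-using coproporphyrinogen oxidase of heme synthesis, went from 74.5 to 181, and COX11, a copper chaperone of cytochrome oxidase, was 2.07-fold lower.

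Purine synthesis genes leaned lower against the median probe set, and scaled on the spikes their median ratio was 0.50, against 0.75 for all genes. Of 22 compared genes, 3 were at least 2-fold lower (against 1.16% of all compared genes) and none higher. A ratio below 0 was found in 19, and the median was -0.28 (-0.20 and -0.11 centred). ADE1, a middle step of the pathway, had signals of 333, 442 and 723. ADE13, adenylosuccinate lyase, had 380.4, 541 and 807, and MTD1, a one-carbon dehydrogenase, had 228, 264 and 472. All 3 have probe set numbers in the range where median ratios were negative, and after centring on that number none of the 3 reached 2-fold, with ADE1 at -0.82 and ADE13 at -0.91. The list's share of summed signal went from 1.38% in the control to 1.07%. Pyrimidine synthesis had 16 compared genes, no call and a median of -0.21 (-0.03 and -0.06 centred).

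Amino acid synthesis differed by pathway. Arginine genes, 13 compared, had a median ratio of 0.43 (0.43 and 0.48 centred), and ARG1, argininosuccinate synthetase, was the sole call with signals of 268, 504 and 123, highest at 7.5 µM. Lysine genes, 11 compared, had a median of 0.39 (0.29 and 0.27 centred) with 9 above 0, and LYS9, saccharopine dehydrogenase, was 2.07-fold higher. LEU2, of leucine synthesis, went from 162 to 350.0, and its 3 probe sets had ratios of 1.84, 0.88 and 1.11. Branched-chain, aromatic and sulfur amino acid synthesis had medians of 0.05 (0.04 and 0.07 centred), 0.10 (0.01 and 0.08 centred) and 0.10 (0.09 and 0.17 centred). The 2 lower genes of the sulfur list were permeases, SAM3 for S-adenosylmethionine and MUP3 for methionine. Their signals were 26.6, 70.9 and 86.6 and 22.2, 41.9 and 55.8. The SAM3 probe set used has the suffix s and a ratio of -1.70. Other SAM3 probe sets above the floor had ratios of -1.05, -0.98 and -0.25.

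The breakdown of aromatic amino acids to fusel alcohols, the Ehrlich pathway, had lower first steps. ARO9, the aromatic transaminase, had signals of 60.7, 77.4 and 169 and ARO10, the decarboxylase that follows it, had 8.18, 12.3 and 65.9. Of 18 compared genes of the list, 2 were at least 2-fold higher and 2 lower, against 2.77% and 1.16% of all compared genes. The median ratio was 0.11 (0.10 and 0.06 centred). The higher genes were ATF2, an alcohol acetyltransferase, and EHT1, an ethanol acyltransferase that was short of 2-fold after centring on number. GAT2, a transcription factor grouped here with nitrogen source use, had 22.0, 36.4 and 73.3. Polyamine genes, 16 compared, had a median of -0.21 (-0.01 and -0.02 centred), with the exporter TPO4 higher and TPO2 and SAM3 lower. After centring the polyamine median was close to 0.

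Metal genes had few calls. FET3, the copper-containing oxidase of high-affinity iron uptake, had signals of 329, 426 and 823 and was the sole lower gene among 33 of iron and copper (against 1.16% of all compared genes). COT1, a vacuolar cobalt and zinc transporter, was the sole higher one and went from 58.8 to 134. ZRT1, the high-affinity zinc transporter, had 102, 86.2 and 204, and its 2 further probe sets above the floor had ratios of -1.89 and -0.98. The median of the 33 iron and copper genes was 0.04 (0.06 and 0.07 centred) and that of 12 zinc genes -0.28 (-0.12 and -0.12 centred).

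**Figure D4:**
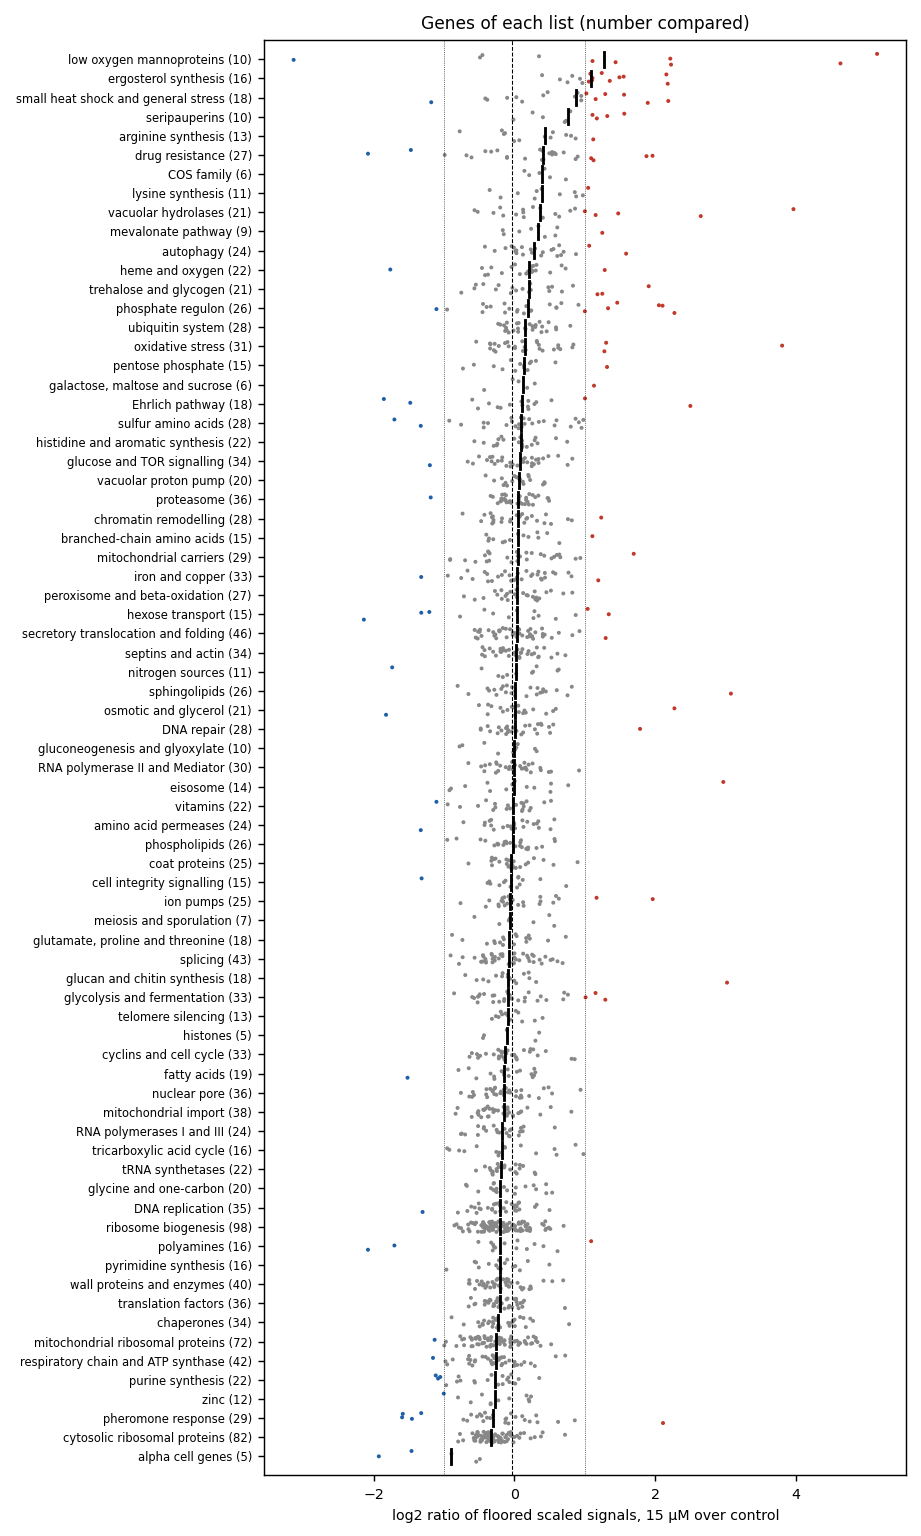
Log2 ratio of 15 µM over control (x axis) of each compared gene (points) in lists with at least 5 compared genes (number in brackets), sorted by the list's median (black bar), with red and blue points past 2-fold, dotted lines at 2-fold and a dashed line at the median of all compared genes, -0.03. Low-oxygen mannoproteins, ergosterol synthesis and general stress stand at the top, and alpha cell genes, cytosolic ribosomal proteins and pheromone response at the bottom; scaled on the spikes, all gene ratios would lie further right, with an all-gene median of 0.75.

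Ribosomal protein genes lay together slightly below the genome's median. Scaled on the spikes their median ratio was 0.50, against 0.75 for all genes. Of 139 genes of cytosolic ribosomal proteins, 82 were compared, none reached 2-fold, 72 had a ratio below 0 and the median was -0.34 (-0.26 and -0.07 centred). It was -0.08 after centring on signal alone. With a median control signal of 1771, these 82 genes are themselves a large part of the bright genes that set that centring. The centred value therefore cannot compare them with other genes of like brightness. RPL5 and RPS28B had ratios of -0.80 and -0.77, and RPL7B had 0.72. The list held 17.2% of summed signal in the control and 15.0% at 15 µM.

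The other parts of the translation machinery had 1 call in all. Ribosome biogenesis had 98 compared genes, none called, and a median of -0.20 (-0.16 and -0.13 centred). The 36 compared translation factors had a median of -0.21 (-0.14 and -0.06 centred) and the 22 tRNA synthetases one of -0.18 (-0.15 and -0.06 centred). The 24 subunits of RNA polymerases I and III had -0.18 (-0.14 and -0.11 centred). None of these 3 lists had a call, and the first 2 came close to 0 once centred on number and signal. Mitochondrial ribosomal proteins had 72 compared genes, 54 below 0, and a median of -0.26 (-0.24 and -0.26 centred). This median kept its distance from 0 under both centrings. Their sole call was MRPL13, at 2.19-fold lower, which was lost after centring.

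**Figure D5:**
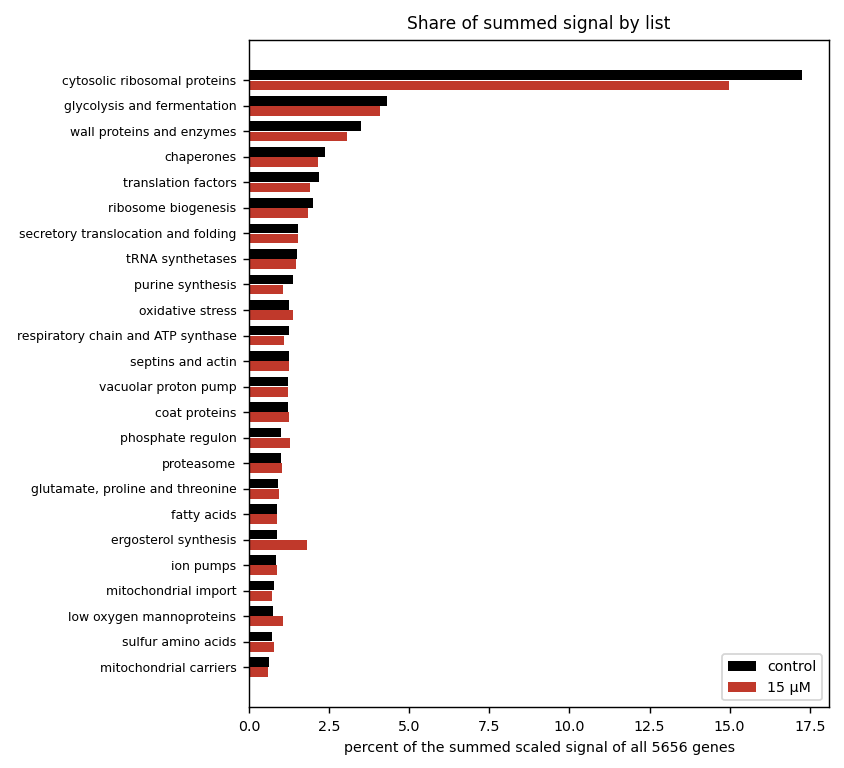
Share of the summed scaled signal of all 5656 genes (x axis, percent) held by each of the 24 lists with the largest share in the control, on the control (black) and 15 µM (red) arrays, 1 array each. Cytosolic ribosomal proteins went from 17.2% to 15.0% and purine synthesis from 1.38% to 1.07%, while ergosterol synthesis went from 0.862% to 1.81% and the phosphate regulon from 0.99% to 1.29%.

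Nuclear and cell cycle groups had few calls. Cyclins and cell cycle regulators had 33 compared genes, none called, and a median of -0.14 (-0.07 and -0.10 centred). DNA replication had 35 compared genes and a median of -0.20 (-0.05 and -0.09 centred), and its sole call was POL30, the sliding clamp of DNA polymerase, with signals of 126, 134 and 312. DNA repair had a median of 0.005 (0.13 and 0.09 centred), with HUG1, a small protein induced when DNA is damaged, going from under the floor to 62.8. Splicing, the nuclear pore, RNA polymerase II with Mediator, and septins with actin had no call among 43, 36, 30 and 34 compared genes, and medians between -0.15 and 0.03 (between -0.10 and 0.08 after both centrings). The anaphase-promoting complex subunits CDC16 and APC1 are in no list. CDC16 was 2.77-fold lower, while for APC1 a second probe set had a ratio of 0.16 against -1.11 for the one used. RAS1, a GTPase of nutrient signalling, was 2.30-fold lower.

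Mating genes leaned lower against the median probe set. Scaled on the spikes the median ratios were -0.06 for alpha cell genes and 0.53 for the pheromone response, against 0.75 for all genes. The strain's alpha cell genes were bright in the control and all 5 compared had ratios below 0, with a median of -0.90 (-0.70 and -0.58 centred). MF(ALPHA)1, the main alpha-factor gene, had signals of 1330.1, 1492 and 1937 and MF(ALPHA)2, the minor one, had 369, 536 and 1016. STE3, the receptor for a-factor, had 265, 387 and 372, so at 7.5 µM it was above the control, and SAG1 had the values given above. None of the 7 listed genes of the opposite mating type was above the floor on either array, which fits the alpha mating type of S288c.

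Of 29 compared genes of the pheromone response, 4 were at least 2-fold lower and 1 higher, against 1.16% and 2.77% of all compared genes. The median was -0.30 (-0.22 and -0.24 centred). FUS1, a membrane protein of cell fusion, had signals of 24.6, 34.8 and 73.9. AGA1, the anchor of the agglutinin, had 121, 175 and 365, and SST2, which switches off the pheromone G protein, had 57.9, 125 and 159. FUS3, the kinase of the pathway, had 34.3, 57.5 and 85.8, and both of its probe sets above the floor were past 2-fold, with ratios of -1.32 and -1.24. PRM4, listed as a pheromone-regulated gene, went from 46.3 to 200.2, as the sole higher one. TEC1, a transcription factor of filamentous growth that the pheromone kinase acts on, was 2.31-fold lower. NFG1, named as a negative regulator of filamentous growth, was 3.77-fold lower. The core G protein genes differed less, with STE4 at -0.30 and GPA1 at -0.39.

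Of the called genes, 58 of the 129 higher and 21 of the 54 lower were in no list. Among the higher were SCM4, an outer mitochondrial membrane protein, with signals of 418, 272 and 80.0, and SRO77, a protein of exocytosis, with 137, 104 and 40.7. HES1, an oxysterol-binding protein, went from under the floor to 98.9. YHR138C had 292, 98.5 and 92.0, with the 7.5 µM signal close to the control, and YPR145C-A had 174, 44.9 and 0.417. DUS3, a tRNA dihydrouridine synthase, had 27.7, 36.3 and 83.1 and TEL2, of the complex that assembles large checkpoint kinases, was 2.77-fold lower. A second TEL2 probe set above the floor had a ratio of -0.16 against -1.47 for the one used. Genes with only a systematic name were higher more often than others, 15 of 275 (5.45%) against 114 of 4385 (2.60%). Of 29 compared small nucleolar RNA genes, SNR67 was the sole call, with 74.4, 159.6 and 217. SRO77, YHR138C and TEL2 were chosen after their values were seen. The same holds for HPF1, UBP5, UBP11, GDE1, COX11, CDC16, APC1, TEC1 and YLL053C above, which are in no list.

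Higher genes made up a larger share near chromosome ends. Among the 20 genes nearest each chromosome end, 338 were compared and 19 (5.62%) were at least 2-fold higher, against 110 of 4320 (2.55%) elsewhere. Lower genes made up 1.78% at the ends and 1.11% elsewhere. DAN1 and DAN4, PHO89 with its neighbour MAL33, a maltose activator, and 3 seripauperins lie in these end regions. Of the 19, PAU3, PAU10, PAU13 and YAL063C-A are read by family-type probe sets, which share probes between relatives. Among all family probe sets above the floor, 8.94% were at least 2-fold higher, so the share at the ends is not one of position alone. Of 6 compared COS genes, a family at chromosome ends, all had ratios above 0, with a median of 0.39 (0.29 and 0.29 centred) and no call, and 4 are read by probe sets that are not of the plain type. Of 3579 pairs of adjacent compared genes, 6 pairs were both higher and 3 both lower, and 3 had 1 of each. The higher pairs were DAN1 with DAN4, TIR3 with DOT5, ARI1 with AMS1, ERG1 with ATF2, SNF11 with TPS2, and YIL108W with PFK26. The lower pairs were HXT7 with HXT6, whose probe sets cannot tell them apart, YLL053C with AQY2, of 1 locus, and TRZ1 with MTD1. Both TRZ1 and MTD1 were short of 2-fold after centring on number.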

How the data were processed

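Total RNA of 3 conditions was hybridised to 1 Affymetrix yeast array each. For every probe set the deposited table gives 1 linear intensity from each array, made by the authors. Their summary method, detection calls and scaling are not stated in the labels. Trimmed by 2% at either end, the deposited intensities had a mean of 100.1 on each array, so a global scaling was applied and a difference in total messenger RNA cannot be seen. Deposited medians were 30.4, 30.1 and 28.5 at 15 µM, 7.5 µM and control, and the number of arrays limits the precision.

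Of 9275 non-control probe sets, 6504 had 1 annotated gene, 328 several and 2443 were not listed in the probe annotation given. Genes were named from the first kind only, with symbols of the R64 gene table, and the brightest probe set stood for a gene. Intensities were divided by the array median (factors 0.974, 0.986 and 1.04 after return to a common level), floored at the 40th percentile and put on the log2 scale. A rule of 2-fold with the brighter array above the floor took the place of a test. The 79 gene lists, the members and the rule for named genes were chosen with earlier results of these data known. That rule took the 15 largest ratios and 10 largest signal differences in each direction outside sterol synthesis. From each list it took the 6 largest ratios, the 3 brightest genes, all called genes and, for lists of 12 or fewer, every gene. Some genes named in no list fall outside it and were chosen after their values were seen, as the text says.

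Alternatives were the deposited values, quantile normalisation, lowess centring on signal (span 0.3), scaling on 8 spike probe sets, floors at the 20th and 60th percentile, a pseudocount at the 5th percentile in place of the floor, the mean of a gene's probe sets, plain probe sets only and a 3-fold rule. Centring on probe set number, alone and followed by signal, was chosen after seeing the data. Computation used Python 3.11.15 with pandas 2.3.3, numpy 2.4.6 and, for lowess, statsmodels 0.14.6, and figures used matplotlib 3.10.9.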

Additional observations from a re-analysis of the deposited data

How the results depend on the processing

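The counts of 129 higher and 54 lower genes stayed within 1.5 times under the deposited values, quantile normalisation, lowess centring on signal, the mean of probe sets, plain probe sets only and centring on probe set number with or without signal. Under these settings 116 to 129 of the higher and 40 to 51 of the lower genes were kept. Scaling on the spikes gave 1288 higher and 7 lower genes and moved the median ratio of all genes to 0.75, so the split of higher among called genes went from 70.5% to 99.5%. The floor at the 20th percentile gave 202 and 143 (58.6% higher) and that at the 60th gave 85 and 27. The pseudocount in place of the floor gave 150 and 88, and the 3-fold rule 38 and 12. Of the called genes only APC1 took the other sign, at 0.99 with spike scaling and 0.16 with plain probe sets only. Of 77 list medians, 38 had the other sign with spike scaling, 15 with deposited values and at most 10 under any other setting. Genes near the floor are limited by brightness, and among the 129 higher genes 18 folds are lower bounds. No paired analysis was possible because each condition has 1 array and no replicate number. For all values that moved, the cause was not tested.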

Other observations

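Some genes had a 7.5 µM signal outside the range of the other arrays, which the comparison of 15 µM with control does not show. Among the 129 higher genes this was so for 14 above the 15 µM signal and 2 on the other side of the control, and among the 54 lower genes for 4 beyond the 15 µM signal and 1 on the other side of the control. ARG1, of arginine synthesis, was highest at 7.5 µM, with scaled signals of 268, 504 and 123 at 15 µM, 7.5 µM and control, and ADH5, a minor alcohol dehydrogenase, had 82.1, 119.8 and 33.5. MNC1, chosen after its values were seen, had 66.0, 17.9 and 24.9, with only the 15 µM signal above the control.

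Families that laboratory yeast keeps silent in growth stayed largely out of the comparison. Of 46 listed genes of meiosis and sporulation, 7 were above the floor on either array, with a median ratio of -0.07 (0.18 and 0.14 centred), and none called. No YRF1 helicase gene of the chromosome ends has a probe set of its own in the annotation given, so that family is not analysed here. Of 20 genes of gluconeogenesis and the glyoxylate cycle, 10 were compared, with a median of -0.01 (0.001 and -0.04 centred) and none called.

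Probe sets without a gene in the annotation given were mostly dim, with 629 of 2443 above the floor on either array. Of these 629, 18 (2.86%) passed 2-fold upward and 14 (2.23%) downward, against 3.17% and 1.52% of all probe sets above the floor. By type, family probe sets were at least 2-fold higher in 8.94% of 414 above the floor although their median ratio was -0.25, against -0.06 for all probe sets, and the type with the suffix s at least 2-fold lower in 6.21% of 306.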
